A study of Caenorhabditis elegans with 2 samples.

Results

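Of the 1841 summits in the reproducible XND-1 peak list, 510 (27.7%, 95% exact Clopper-Pearson interval 25.7% to 29.8%) lay in the promoter window of exactly 1 protein-coding gene whose nearest upstream neighbour is read from the same strand. The window ran from 500 bp upstream to 200 bp downstream of any annotated 5′ end of the gene. A summit is the base of highest signal in a peak, and the upstream neighbour is the nearest protein-coding gene that does not overlap the gene. Of 1122 summits in promoter windows, 838 belonged to a single gene, and 328 of those single-gene summits had an opposite-strand neighbour upstream, which serve below as the comparison. Within that list, neither the peak score nor the distance to the neighbour was used to choose the 510 summits. The list itself was thresholded on reproducibility between the replicates, and its lowest peak score was 65.6.

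The samples were 2 biological replicates of 1 group, whole hermaphrodite young adults of Caenorhabditis elegans strain QP0661, collected 50 h after starved first-stage larvae were released to grow. The strain carries XND-1 fused at its C-terminus to GFP and FLAG, and chromatin was sonicated and precipitated with an antibody against GFP. The animals were whole, so bound sites cannot be assigned to a tissue, and all samples carry the tag. The lists give no read totals, so the depth behind each score is unknown.

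XND-1 is a chromatin-associated protein of the germline, known for its part in placing meiotic crossovers and in germ cell development. In C. elegans many neighbouring genes on the same strand form operons: a promoter ahead of the first gene gives a polycistronic pre-mRNA, which is cut into single mRNAs as the spliced leader SL2 is joined to the 5′ ends of the downstream genes. Genes inside an operon are typically separated by a short stretch, and some carry a promoter of their own within it. No operon annotation was used here, so gaps and runs of close genes are described by distance only and are not called operons.

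Gaps were measured between annotated gene ends and split into short (at most 500 bp), intermediate (over 500 and up to 2000 bp) and long (over 2000 bp). The 510 summits comprised 261 behind a short gap (51.2%), 184 behind an intermediate gap (36.1%) and 65 behind a long gap (12.7%). They fell on 481 genes, 29 of which carried 2 such summits. To show what these sites look like, whole gaps are printed first for 3 short-gap genes on their own strand, 5′ to 3′, from the 3′ end of the neighbour to the 5′ end of the gene. Capitals mark, on either strand, the 5 words of 6 bases that stood out most at the summits, whose letters and shares are given further on. All sequences are from the RefSeq WBcel235 assembly. The rnr-1 gap (chrIII:9228799-9229001, minus strand, summit at base 71) separates the ribonucleotide reductase large-subunit gene from T23G5.3. The tofu-6 gap (chrII:5421094-5421247, plus strand, summit at base 52) lies ahead of a gene for a PETISCO subunit of the piRNA pathway and holds none of the 5 words. The Y54E2A.8 gap (chrII:14778150-14778344, plus strand, summit at base 129) was chosen after its values were seen, because it is among the highest-scoring gaps short enough to show whole.
rnr-1 gap: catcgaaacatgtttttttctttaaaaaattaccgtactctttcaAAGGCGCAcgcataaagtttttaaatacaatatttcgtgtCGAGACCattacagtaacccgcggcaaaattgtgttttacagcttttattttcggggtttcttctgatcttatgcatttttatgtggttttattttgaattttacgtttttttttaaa
tofu-6 gap: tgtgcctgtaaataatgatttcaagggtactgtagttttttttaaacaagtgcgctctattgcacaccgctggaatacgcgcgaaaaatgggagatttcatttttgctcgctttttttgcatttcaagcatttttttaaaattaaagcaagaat
Y54E2A.8 gap: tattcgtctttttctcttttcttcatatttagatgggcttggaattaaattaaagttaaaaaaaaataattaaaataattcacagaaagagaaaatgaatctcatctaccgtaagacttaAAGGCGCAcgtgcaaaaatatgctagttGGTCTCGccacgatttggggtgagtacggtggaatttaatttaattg

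For the wider gaps, the summit base is shown with 50 bases on either side, again on the gene's strand. A pair of them stand behind intermediate gaps: taf-12, for a TFIID subunit that takes part in transcription initiation (chrIII:11869579-11869679, minus strand), and puf-11, for a Pumilio-family RNA-binding protein (chrIV:6421324-6421424, plus strand). The others stand behind long gaps: sgo-1, for the cohesion protector shugoshin (chrIV:7796850-7796950, minus strand), ppk-2, for a phosphatidylinositol phosphate kinase (chrIII:2102024-2102124, plus strand), and aakg-1, for a gamma subunit of AMP-activated kinase (chrIII:12575530-12575630, minus strand), whose window holds none of the 5 words.
taf-12 summit: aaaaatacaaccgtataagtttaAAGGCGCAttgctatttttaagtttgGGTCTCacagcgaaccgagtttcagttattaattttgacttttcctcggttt
puf-11 summit: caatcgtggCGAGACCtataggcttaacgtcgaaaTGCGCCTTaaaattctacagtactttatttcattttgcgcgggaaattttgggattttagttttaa
sgo-1 summit: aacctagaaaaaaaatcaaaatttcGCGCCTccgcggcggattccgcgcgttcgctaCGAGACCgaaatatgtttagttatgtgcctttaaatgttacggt
ppk-2 summit: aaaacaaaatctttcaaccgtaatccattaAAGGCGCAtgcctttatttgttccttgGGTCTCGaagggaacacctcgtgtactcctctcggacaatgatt
aakg-1 summit: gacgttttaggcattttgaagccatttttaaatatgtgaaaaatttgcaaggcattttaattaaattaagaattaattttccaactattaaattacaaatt

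The 10 strongest short-gap summits included those at hcp-1 of the kinetochore, chs-1 of the eggshell and rnr-1 of nucleotide synthesis. Scores have no unit, were given by the authors' peak caller and rank peaks within a list only. F26F2.7 had the highest score, 2018 in the reproducible list, with 1020 in replicate 1 and 993 in replicate 2, and its summit lay 257 bp upstream of the 5′ end in a gap of 299 bp behind F26F2.8. The gpi-1 gene, for glucose-6-phosphate isomerase, followed at 1801 (743 in replicate 1 and 1056 in replicate 2), with its summit in its own 5′ UTR. C01G8.1 scored 1550 (713 and 841 in replicates 1 and 2). The kinetochore gene hcp-1, for a CENP-F-like protein, scored 1317 (637 and 679). Both replicates gave a strong peak at each of these 4 genes, and the largest disagreement among them was at gpi-1.

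The eggshell chitin synthase gene chs-1 scored 1156 (575 in replicate 1 and 582 in replicate 2), 93 bp upstream of its 5′ end in the gap behind T25G3.1, which also carried a summit. Y57G11C.5 scored 1102 (563 and 532), and its summit lay inside the gene. The skpt-1 gene scored 1076 (447 and 628), also with a summit inside the gene. At rnr-1, whose gap is printed above, the score was 1002 (507 and 498), with the summit 133 bp upstream of the 5′ end. The last of the 10 strongest short-gap summits were at egg-4, whose product acts at the egg-to-embryo transition (933), and at cul-4, for the cullin scaffold of a ubiquitin ligase (914). A gene is called bound here when a summit lies in its promoter window. Of these 10 summits, 1 had a bound gene upstream.

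Behind intermediate gaps the highest scores were at taf-12 (1794, with 867 in replicate 1 and 917 in replicate 2), puf-11 (1495, with 682 and 811), the clathrin adaptor gene unc-101 (1344, with 665 and 679), pcn-1, for the replication clamp PCNA (1217, with 584 and 631), and T21B10.3 (1092, with 526 and 569). The fertilization gene egg-1, for an egg surface protein, scored 1052 (514 and 536).

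Only 1 long-gap summit reached a score of 1000. It was sgo-1, at 1424 (600 in replicate 1 and 822 in replicate 2), with a gap of 5335 bp to C33H5.16. The next were aakg-1 at 782 (382 and 408, behind a gap of 20592 bp), rnp-8, for a partner of the poly(A) polymerase GLD-2, at 703 (347 and 349), ppk-2 at 647 (298 and 349) and the B-type cyclin gene cyb-2.2 at 642 (299 and 348). The receptor tyrosine phosphatase gene clr-1 scored 526 behind daz-1, which was itself bound. The nkcc-1 gene, for a sodium-potassium-chloride cotransporter, scored 420, F07C6.4 scored 413, F56F11.4 scored 384 and Y66D12A.16 scored 369. The median score nevertheless was lowest behind short gaps: 111 for short, 134 for intermediate and 177 for long gaps, against 161 for single-gene summits behind an opposite-strand neighbour. For summits in the gap itself the order differed, with medians of 138 for short, 133 for intermediate and 179 for long gaps. Among short-gap summits, the 92 inside the gene had a median of 93.4 and the 14 inside the neighbour one of 89.3. The differences in medians were not tested, because peaks of 1 list are not replicates.

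Each of the 510 summits was covered by a peak in the replicate 1 list, and 509 were covered in the replicate 2 list. These lists are loose, so each was also cut to its 1841 highest scores. By that measure 406 summits (79.6%) recurred in both replicates: 75.9% behind short, 82.6% behind intermediate and 86.2% behind long gaps, against 85.7% of single-gene summits behind an opposite-strand neighbour. Across 509 summits the replicate scores had a Spearman rho of 0.85, which was 0.81 behind short and 0.92 behind long gaps. The 510 summits come from a list thresholded on reproducibility between these same replicates, so the choice itself favours recurrence and similar scores. Where 1 replicate peak covers 2 summits, as at oma-2, both take its score. The summits also share lists and libraries, so these are descriptions.

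**Figure D1:**
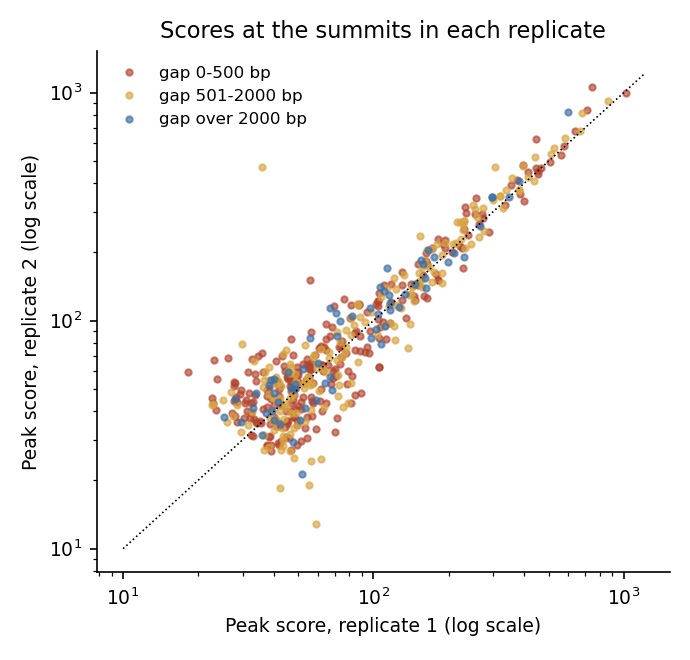
Peak score at each summit in replicate 1 (horizontal, log scale) and replicate 2 (vertical, log scale), with 1 point for each of 509 summits, coloured by gap class, and a dotted line of equal scores. The points follow the line at high scores and spread at low ones, and the point far above the line is the weaker of 2 summits at lin-5 (35.7 in replicate 1 and 472 in replicate 2), where 1 replicate 2 peak covers both summits.

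The summit with no replicate 2 peak was the weaker of 2 at sdha-2, at a score of 84.2 in the reproducible list and 11.7 in replicate 1. It lay inside the 3′ UTR of the neighbour ndua-13, whereas the stronger sdha-2 summit, 114 bp upstream of the 5′ end, scored 327 (151.03 in replicate 1 and 176 in replicate 2). These 2 genes were named after their values were seen.

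Summits were more frequent at genes behind short gaps than at genes behind long ones. Of 3612 genes with a same-strand neighbour within 500 bp, 251 carried a summit of their own (6.95%, interval 6.14% to 7.83%), against 62 of 3309 genes behind a long gap (1.87%, interval 1.44% to 2.40%), a 3.71-fold difference in share. Intermediate gaps stood between them, at 168 of 3976 genes (4.23%, interval 3.62% to 4.90%). Over all 10897 genes with a same-strand neighbour the share was 4.41%, and 4.63% when summits shared with another gene were counted too. By comparison, 3.41% of the 9071 genes with an opposite-strand neighbour carried a single-gene summit and 9.14% carried any summit, and 6.68% of all 19973 protein-coding genes carried any summit. With any summit counted, the shares were 7.12% for short (interval 6.30% to 8.003%), 4.38% for intermediate and 2.24% for long gaps (interval 1.76% to 2.80%). The short-gap share was thus near that of all protein-coding genes, and the long-gap share lay below it. Intervals here and below cover counting error only.

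The order held in each replicate alone. Among the 1841 highest peaks of replicate 2, 6.92% of short-gap and 1.75% of long-gap genes carried a summit of their own, and among those of replicate 1 the shares were 6.81% and 1.90%. It held on each autosome as well. On chromosome I the shares were 10.8% for short and 3.73% for long gaps, on II 8.85% and 3.25%, on III 7.17% and 3.25%, on IV 8.25% and 1.96%, and on V 3.85% and 0.805%. Chromosome V had the lowest share of the autosomes in all gap classes.

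On the X chromosome 3 summits met the rule. They stood at C04B4.2 (130, with 72.4 in replicate 1 and 57.9 in replicate 2), F46H5.3 (106, with 46.7 and 53.6) and H39E20.1 (92.5, with 38.3 and 55.0). None of the 679 X-linked genes behind a long gap was bound, which allows a share of up to 0.442% by the limit of 3 counts of the total, or 0.542% by the exact interval used elsewhere. Over the autosomes alone the shares were 7.48% for short, 4.88% for intermediate and 2.36% for long gaps.

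Within the short class the share did not fall steadily with distance. In bins that include their upper limit, it was 6.02% for gaps up to 50 bp, 4.596% for 50 to 100 bp and 5.08% for 100 to 150 bp, the range in which genes inside C. elegans operons typically lie. It then stood at 7.05% for 150 to 200 bp, 7.70% for 200 to 300 bp, 9.76% for 300 to 400 bp and 8.83% for 400 to 500 bp. Past the class limit it was 7.56% for 500 to 700 bp, 4.93% for 700 to 1000 bp, 2.16% for 1000 to 2000 bp, 1.82% for 2000 to 5000 bp and 1.96% above 5000 bp. The highest shares thus belonged to gaps of 200 to 700 bp rather than to the tightest ones.

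The neighbour upstream showed another pattern. Where the gap was up to 50 bp, 50 to 100 bp or 100 to 150 bp, the upstream gene carried a promoter summit in 13.9%, 16.5% and 16.6% of cases. Its share was 8.01% at 150 to 200 bp and 3.37% at 700 to 1000 bp. Summed over gaps of at most 200 bp, 5.35% of 1907 genes carried a summit of their own and 14.8% of their neighbours were bound, and over 200 to 500 bp the shares were 8.74% and 7.92%. Past 1000 bp the upstream gene again had the higher share: 4.59% of upstream genes and 2.16% of the genes themselves at 1000 to 2000 bp, 5.06% and 1.82% at 2000 to 5000 bp, and 5.96% and 1.96% above 5000 bp. The upstream gene is counted here by any promoter summit, and the gene itself by a single-gene one. With any summit counted, the gene itself stood at 5.51% for gaps of at most 200 bp and 2.43% at 1000 to 2000 bp. It stood at 2.11% at 2000 to 5000 bp and 2.43% above 5000 bp. By either count the upstream gene had the higher share at the tightest and at the widest spacings. The 2 sets are unlike, since the gene itself always follows a same-strand neighbour and the upstream gene may follow an opposite-strand one. Any summit stood at 4.63% of genes behind a same-strand neighbour and at 9.14% behind an opposite-strand one. The part of this in the comparison was not tested. Past 1000 bp the share of the upstream gene lay below the 6.68% of all protein-coding genes with any summit.

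**Figure D2:**
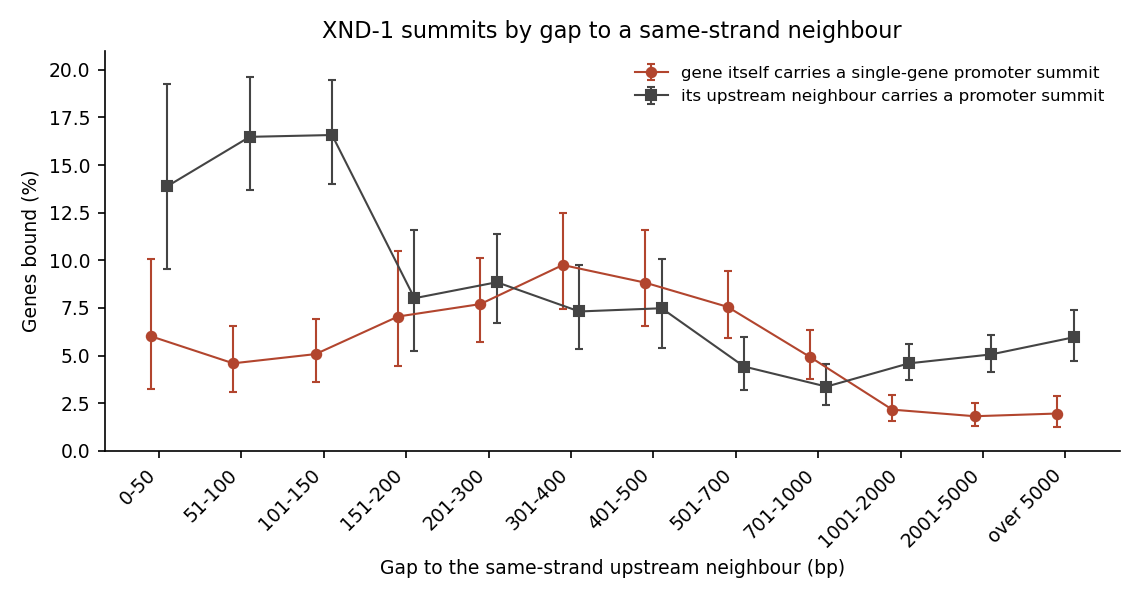
Share of genes bound (vertical, percent) by gap to the same-strand upstream neighbour (horizontal, bp, in 12 bins), for the gene itself (circles) and its upstream neighbour (squares), with 95% exact binomial intervals. The gene itself is counted by a single-gene summit and the neighbour by any promoter summit. The neighbour lies at 13.9% to 16.6% up to 150 bp, and the gene itself peaks at 9.76% for gaps over 300 and up to 400 bp.

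Bound genes were found more often behind bound neighbours. Behind a short gap, 16.99% of genes with a bound neighbour carried a summit (71 of 418), against 5.64% of genes with an unbound neighbour (180 of 3194). Behind an intermediate gap the shares were 11.4% and 3.91%, and behind a long gap 6.15% and 1.63%. Seen from the summits, 74 of the 261 short-gap summits (28.4%) had a bound gene upstream and the rest did not.

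Summits of short-gap genes stood less far upstream of the 5′ end. Their median position was 132 bp upstream, against 221 bp behind long gaps, with 286.5 bp behind intermediate gaps, and 200.5 bp behind an opposite-strand neighbour. Positions downstream of the 5′ end enter these medians as negative. For summits in the gap alone the medians were 163 bp for short, 290 bp for intermediate and 229 bp for long gaps. A short gap also limits how far upstream a summit in it can lie. Of the 261 short-gap summits, 155 (59.4%) lay in the gap, 92 (35.2%) inside the gene itself and 14 (5.36%) inside the neighbour. Of the 184 intermediate-gap summits, 169 (91.8%) lay in the gap and 15 inside the gene. Of the 65 long-gap summits, 45 (69.2%) lay in the gap and 20 inside the gene. A short gap leaves less room for a summit, so these shares reflect the available length as well, and the density per length is given next.

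Per length, short gaps held the most summits. On the autosomes, 155 summits fell in 0.717 Mb of short gaps inside single-gene windows, or 216 per Mb (exact Poisson interval 183 to 253). Intermediate gaps held 99.2 per Mb and long gaps 35.3 per Mb (25.7 to 47.2), against 105 per Mb for gaps to an opposite-strand neighbour. The part of the window inside the gene itself held 80.8 summits per Mb behind short gaps, 13.3 behind intermediate gaps and 17.6 behind long gaps, against 20.9 behind an opposite-strand neighbour. The part inside the same-strand neighbour, reached from short gaps only, held 15.6 per Mb. Short gaps went with more summits per base both in the gap and in the part of the window inside the gene, and the end of the neighbour held fewer than either. The part inside the gene is not only its first bases, since 39 of the 261 short-gap summits stood at a 5′ end inside the gene.

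**Figure D3:**
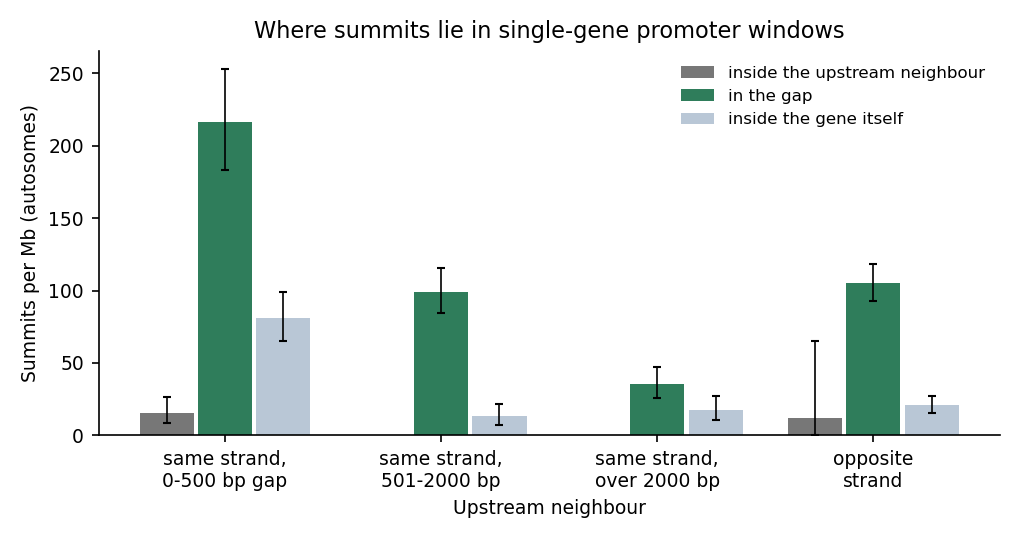
Summits per Mb of autosomal single-gene window (vertical) by kind of upstream neighbour (horizontal) and by place within the window (bar colour), with exact 95% Poisson intervals. The short-gap bar stands at 216 per Mb, and the bars inside the upstream neighbour stand at 15.6 per Mb or below.

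**Figure D4:**
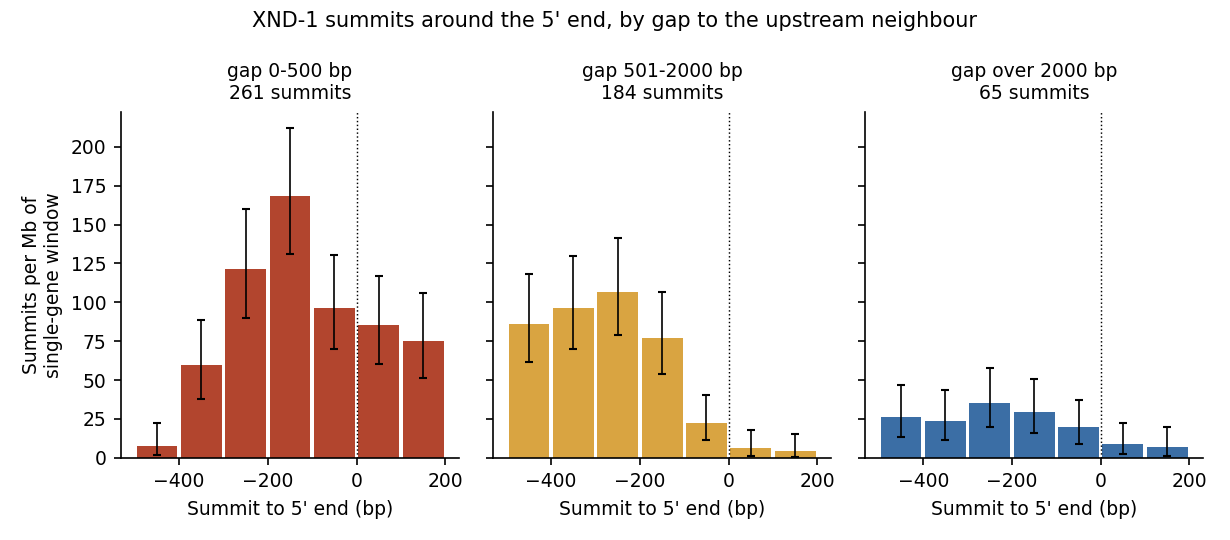
Summits per Mb of single-gene window (vertical) by distance of the summit to the 5′ end in steps of 100 bp (horizontal, negative upstream) for short, intermediate and long gaps, with exact 95% Poisson intervals. Short gaps peak at 168 per Mb between 200 and 100 bp upstream and stay above the other classes from there to 200 bp downstream of the 5′ end. Intermediate gaps peak at 107 per Mb between 300 and 200 bp upstream.

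The 14 summits inside the neighbour had a median score of 89.3, against 111 for all 261 short-gap summits. The highest scores were 200 at enol-1, for the glycolytic enzyme enolase, where the summit lay in the 3′ UTR of mrpl-50 (94.3 in replicate 1 and 110 in replicate 2), 142 at E01B7.2 (72.6 and 76.7), 105 at swsn-9 (45.3 and 56.5), 101.3 at the peptidyl-prolyl isomerase gene pinn-1 (62.2 and 40.2) and 101.3 at gna-2, for an enzyme of the chitin precursor pathway (52.1 and 64.6). A 3′ UTR held 11 of all 510 summits, each behind a short gap. In all, 362 summits lay between genes, 70 in introns, 42 in coding exons and 25 in 5′ UTRs. At 65 summits (12.7%) the nearest 5′ end was a start inside the gene rather than its outermost end.

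The rule has a fixed window. Just inside its upstream edge lay Y6D1A.1 (500 bp, score 159) and H05C05.2 (496 bp, 91.9), and just outside it dhhc-4 (507 bp, 111) and acbp-6 (508 bp, 192). At the downstream edge, Y65B4A.2 (200 bp, 73.5) and apc-17 (197 bp, 76.7) lay just inside, and pyp-1 (203 bp, 421) and F42C5.9 (204 bp, 195) just outside.

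Chains of close genes were then followed. Linking same-strand genes with gaps of at most 500 bp gave 2649 runs of 6261 genes, the longest of 9 genes. Of the 3612 later genes in these runs, 257 carried any promoter summit (7.12%, interval 6.30% to 8.003%), against 335 of the 2649 first genes (12.6%, interval 11.4% to 13.97%). In single replicates the shares were 7.03% of later and 11.4% of first genes with the highest peaks of replicate 2, and 6.92% and 12.9% with those of replicate 1. By position the share was 12.6% at the first gene, 7.70% at the second, 4.89% at the third, 8.21% at position 4 and 4.04% from position 5 on, the last with an interval of 1.11% to 10.02%. The neighbour of the first gene divided the first genes: 6.32% of the 1028 with a same-strand neighbour farther off were bound, against 16.7% of the 1621 with an opposite-strand neighbour. Later genes differed from first genes of the same-strand kind by less than the counting intervals and stood below those of the opposite-strand kind, whose windows can be shared with a divergent gene.

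**Figure D5:**
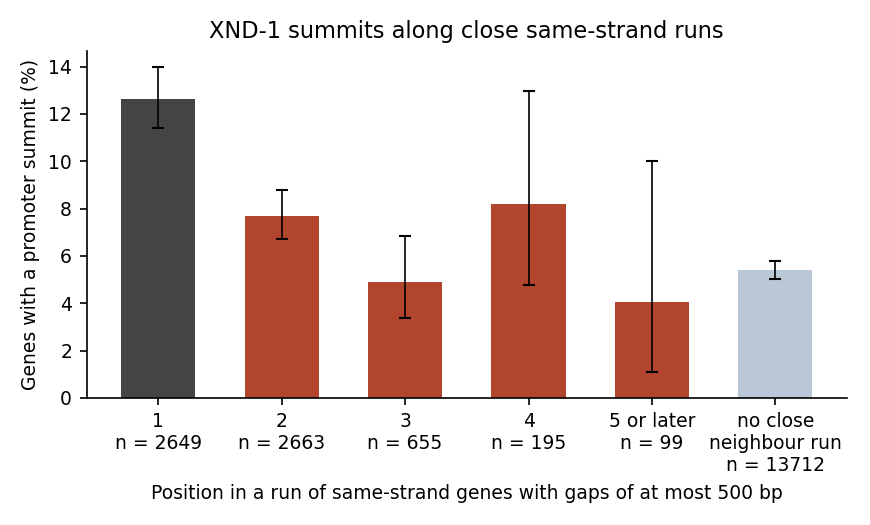
Share of genes with a promoter summit (vertical, percent) by position in a run of same-strand genes with gaps of at most 500 bp (horizontal, with the number of genes), beside genes in no such run, with exact 95% binomial intervals. The first gene stands at 12.6%, later positions between 4.04% and 8.21%, and genes in no run at 5.41%.

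First genes of runs were also set beside genes in no run at matched gaps. Behind an intermediate same-strand gap, 48 of 624 first genes of runs carried a summit of their own (7.69%, interval 5.73% to 10.07%), against 120 of 3352 genes in no run (3.58%, interval 2.98% to 4.27%). Behind a long gap the shares were 13 of 404 first genes (3.22%, interval 1.72% to 5.44%) and 49 of 2905 genes in no run (1.69%, interval 1.25% to 2.22%), and these intervals overlap. Without the X chromosome they were 8.26% and 4.20% for intermediate gaps, and 3.75% and 2.15% for long gaps. Of the 2649 runs, 269 were bound at the first gene only, 173 at a later gene only, 66 at both and 2141 at neither.

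The 9-gene run on chromosome IV started with sgo-1 (1424). Its rsp-6, for an SR splicing factor, scored 284 behind a gap of 474 bp, and imp-3 scored 83.6 behind a gap of 233 bp, while the ntp-1, C33H5.13, tag-322, tag-321, sec-10 and rpap-3 genes were not bound. In the 8-gene run that starts with golg-5, gld-1, for a translational repressor of the germline, scored 135 behind a gap of 448 bp, and gna-2 scored 101.3, while the other 6 genes, the first included, were not bound. In 6-gene runs, oma-1, for a zinc finger protein of oocyte maturation, scored 786 (376 in replicate 1 and 414 in replicate 2) at position 2 behind C09G9.5, and set-2, for a histone H3 lysine 4 methyltransferase, scored 156 at position 2 behind C26E6.12. In these 2 runs no other gene was bound. In a 7-gene run that starts with C16C8.16, C16C8.11 was bound at a score of 70.0. No other gene of that run was bound, and in 4 of these 5 runs the first gene was not bound. The 5 runs were chosen for holding a single-gene summit behind a same-strand neighbour. Among all runs, 251 later and 61 first genes carried such a summit, so the choice favours runs bound at a later gene. Over all runs the order was the reverse, with 269 bound at the first gene only and 173 at a later gene only.

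Genes of 11 operons known from textbooks were looked up by name, and 2 of the operons had a bound gene among the names found. For comparison, 508 of the 2649 close runs (19.2%) had one. In the annotation fib-1, for the nucleolar protein fibrillarin, is followed after 109 bp by rps-16, for a small-subunit ribosomal protein: fib-1 carried a summit at a score of 120 and rps-16 one at 71.5 (33.1 in replicate 1 and 44.0 in replicate 2), with the rps-16 summit 99 bp inside the gene. The Polycomb-group gene mes-6 was bound at 156, while cks-1, 449 bp behind it, was not. No summit stood at mai-1, gpd-2 and gpd-3, at lin-15B and lin-15A, at tra-2, at ced-9, at des-2 and deg-3, at lir-1 and lin-26, at vha-3 and vha-11, at vha-1 and vha-2, or at mes-3 and dom-3. The gpd and lin-15 operons lie on X, where only 3 of the 510 summits stood. Distance did not always place operon partners together. The rule set gpd-2 2749 bp behind spc-1, lin-15A 8116 bp behind ZK662.5 and lin-26 10288 bp behind lir-2, so these genes count as long-gap genes. The names ppp-1 and cyt-1, the textbook partners of tra-2 and ced-9, matched no gene name. In the annotation the gene 126 bp ahead of tra-2 is named eif-2Bgamma and was not bound, while the gene 3 bp ahead of ced-9 is named mev-1 and was bound, so an operon with ced-9 and mev-1 would be the third with a bound gene.

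By function, the proliferation and germline lists led. Genes are counted here by a summit of their own. Of 71 germline-list genes with a same-strand neighbour, 28 (39.4%) carried a summit, against 4.41% of all genes of that kind. For genes of cell proliferation it was 13 of 29 (44.8%) and for housekeeping genes 31 of 150 (20.7%). Somatic lists held 3 of 1124 (0.267%), the sperm list 1 of 31, and genes in no list 405 of 9492 (4.27%). The lists were drawn up with earlier results of these data known, so the counts are descriptions.

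Among translational regulators of the germline, 14 of 21 were bound, the highest share of any list. They were led by puf-11 (1495), oma-1 (786), rnp-8 (703) and mex-6, for a zinc finger protein of embryonic polarity, at 640 (328 in replicate 1 and 312 in replicate 2). Meiotic break, recombination and pairing genes had 6 of 19: dsb-2, needed for double-strand breaks, at 894 (453 and 440) in a gap of 252 bp, zhp-3, for a crossover-site RING finger protein, at 487 (231 and 252), sun-1, for a nuclear envelope protein of pairing, at 433 (225 and 207), zhp-1 at 215, plk-2 and pch-2. The P granule and small RNA list had 6 of 16, led by tofu-6 at 734 (400 and 335), znfx-1 at 537 (258 and 285), pid-1 at 270 (146 and 124) and prde-1 at 111 (71.4 and 37.5). The PETISCO genes tofu-6 and pid-1 both stood behind gaps of 154 bp. Germline chromatin genes had 2 of 14, set-2 (156) and mes-2 (93.9), and the synaptonemal complex and axis list had 0 of its 1 gene of this kind.

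Replication genes had 6 of 14, led by pcn-1 (1217), rnr-1 (1002), psf-3 of the GINS complex (378) and mcm-5 of the replicative helicase (157). Kinetochore, centrosome and cell cycle genes had 7 of 15, led by sgo-1 (1424), hcp-1 (1317) and the related cyclin genes cyb-2.2 (642) and cyb-2.1 (380). Cytosolic ribosomal protein genes had 11 of 27, led by rpl-3 (528), rpl-29 (293), rpl-38 (219) and rpl-24.2 (210). Of the 11, 9 stood behind intermediate gaps, as did 16 of the 27, while 2 of 9 short-gap and 0 of 2 long-gap genes were bound. Nuclear pore and transport genes had 3 of 11, ima-2 (570), imb-2 (342) and imb-3 (78.7). The proteasome had 2 of 10, rpn-11 (143) and pas-5 (95.6), the spliceosome and SR protein list 3 of 16, rsp-6 (284), snr-4 (164) and snrp-200 (76.2), and translation factors and tRNA synthetases 5 of 31, led by eif-3.C (274) and eif-2A (241). Genes of the mitochondrial respiratory chain and ribosome had 7 of 55, led by nduf-11 (218), cyc-2.1 (147), cyc-1 (105) and mrpl-32 (103). Of the 7, 6 stood behind short gaps, as did 45 of the 55, and the shares with a summit were 13.3% behind short and 14.3% behind intermediate gaps.

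In the remaining lists single genes were bound. The sperm list had spe-5 (74.6), the chemoreceptor list had 1 of 839, str-206 (77.1), whose summit lay in the 3′ UTR of its neighbour rme-1. The collagen and cuticle list had 1 of 114, dpy-26 (83.0), which was taken in by its name and acts in dosage compensation. The neuronal list had 1 of 156, unc-31 (90.6), for a dense-core vesicle release factor, and the muscle list had 0 of 15.

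The order of the gap classes was not seen within the germline, proliferation and housekeeping lists. In germline lists 13 of 38 short-gap genes (34.2%) and 5 of 12 long-gap genes (41.7%) were bound, with 10 of 21 behind intermediate gaps. In proliferation lists it was 5 of 15 short-gap and 3 of 4 long-gap genes, with 5 of 10 between. In housekeeping lists 13 of 97 short-gap genes (13.4%) and 3 of 10 long-gap genes were bound, with 15 of 43 (34.9%) between. Among genes in no list the order stood, at 6.83% for short, 4.06% for intermediate and 1.71% for long gaps. The long-gap groups of the lists are small, and somatic-list genes made up 354 of the genes behind long gaps and 258 of those behind short gaps. The part of gene function in the order of the gap classes was not tested.

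The summits stood in sequence richer in G and C than their surroundings. In windows of 50 bases on either side of the summit the median GC content was 41.6%, against 35.6% in windows of the same length 300 bp to either side and 33.7% in such windows 150 bp upstream of all 19973 genes. It was 42.6% behind short and 40.6% behind long gaps, and 42.6% behind an opposite-strand neighbour.

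All words of 6 bases were counted in these windows on both strands, and the 5 capitalized above had the largest excess over the flanks. GGCGCA stood in 20.6% of the windows, against 2.45% of the flanks and 2.26% of all promoters. AGGCGC stood in 19.8%, against 1.76% of flanks and 1.83% of promoters, and AAGGCG in 18.4%, against 2.45% and 2.89%. These 3 overlap one another in the run AAGGCGCA, seen in the rnr-1, taf-12, ppk-2 and Y54E2A.8 sequences above. GAGACC stood in 19.4%, against 2.35% and 2.98%, and the overlapping CGAGAC in 18.8%, against 2.84% and 2.98%. AGGCGC was found in 14.9% of short-gap, 24.5% of intermediate and 26.2% of long-gap windows, GAGACC in 18.4%, 21.2% and 18.5%. At summits behind an opposite-strand neighbour the shares were 19.5% for AGGCGC and 21.95% for GAGACC. The words were picked from these windows, and their shares are descriptions.

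The words AGGCGC and GAGACC often came together. In windows of 100 bases on either side of the summit 66 of the 510 sites (12.9%) held both, against 0.816% of all promoters, and the share was 11.5% behind short, 14.1% behind intermediate and 15.4% behind long gaps. In 44 of the 66 the closest pair stood on opposite strands, and in 35 of these the GAGACC partner, read as GGTCTC, began 23 to 27 bp after AGGCGC, most often 26 bp after it (17 sites). In the other 22 both words were on the same strand, mostly 39 to 41 bp apart (13 sites). The first arrangement was also common among the 163 promoters of all genes that hold both words, where 97 closest pairs stood on opposite strands, 74 of them 23 to 27 bp apart and 39 at 26 bp. Both words stood in 14.02% of windows at single-gene summits behind an opposite-strand neighbour and in 13.0% of those at all 1841 summits. The taf-12, ppk-2 and Y54E2A.8 sequences show the first arrangement, puf-11 shows it on the other strand, and the rnr-1 gap the second. Sites with both words had a median score of 228, against 115.3 for sites without them.

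Of 8 motifs looked up by their letters in the windows of 50 bases on either side, on both strands, 2 were more frequent at the summits. TTCCCGC, an E2F-type site of the kind known at DREAM-complex targets, stood in 7.25%, against 1.18% of both flanks and all promoters. GCGCGC stood in 13.9%, against 0.490% of flanks and 1.43% of promoters. At single-gene summits behind an opposite-strand neighbour the shares were similar, at 6.71% for TTCCCGC and 12.2% for GCGCGC. Shares at the summits were lower for the TATA box TATAAA (6.47%, against 11.5% of flanks and 13.4% of promoters), for TTTTTT (32.7%, against 40% and 45.8%), for AATAAA, the polyadenylation signal (23.7%, against 28.5% and 29.3%), and for CCAAT (14.3%, against 18.9% and 17.6%). By gap class AATAAA stood in 21.8% of short-gap, 23.4% of intermediate and 32.3% of long-gap windows, against 24.1%, 34.2% and 30% of their flanks. The splice-acceptor word TTTCAG stood in 14.3%, against 24.0% and 15.1%, and GAGAGA in 7.25%, against 6.57% and 8.42%. A match shows only that these letters are in the window.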

How the data were processed

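Peak lists of XND-1-GFP ChIP-seq exist for each replicate and for the pool of both, and all were made against a control, per the deposited file descriptions. A list thresholded by IDR, a measure of reproducibility between replicates, was deposited with them. The aligner, peak caller and IDR cut-off are not given in the sources used here, and the control was not analysed here. The deposited score of each peak ranks peaks within a list. The deposited −log10 q was 3.78 for all 1841 IDR peaks. The 24467 pooled, 22772 replicate 1 and 22364 replicate 2 peaks served for replicate checks. All values use the ce11 lists. Lists on ce10 were not used, as no ce10 annotation was at hand.

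Summits were placed on 19973 protein-coding genes of WBcel235 (Ensembl release 115), whose assembly is that of ce11, and sequence came from RefSeq WBcel235. Gaps run between annotated gene ends. Shares carry exact Clopper-Pearson and densities exact Poisson intervals (95%), which cover counting error only. No test was run, since the series has 1 group and regions are not replicates. Where a short-gap share is set beside a long-gap one, the replicate lists give the only replicate check. The membership code was tested on planted summits.

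The named genes are the 15 highest scores, the 10 highest behind short and long gaps, the 5 highest behind intermediate gaps, up to 4 per list, all on X, the 5 highest inside a neighbour, those at the window edges, textbook operon genes and the 5 longest runs with such a summit (of 3 such runs of 6 genes, the first 2 by name). In the meiotic list plk-2 and pch-2 fall outside the rule and were named after their values were seen. The 18 gene lists hold synaptonemal, meiotic, P granule, translational control, chromatin, replication, kinetochore, ribosomal, proteasome, mitochondrial, spliceosome, translation factor, nuclear pore, sperm, chemoreceptor, collagen, neuronal and muscle genes. The members and lists were chosen with earlier results of these data known. Alternatives varied the window, peak list, replicate, chromosomes, 5′ ends, gap limits and gap measure. Software was Python 3.11.15, pandas 2.3.3, scipy 1.17.1 and matplotlib 3.10.9.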

Additional observations from a re-analysis of the deposited data

How the results depend on the processing

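The short-gap share stayed above the long-gap share in all 16 alternatives that bear on it. Of 17 alternatives in all, 3 were added after the data were seen. With a window of 200 bp upstream to 100 bp downstream, 236 summits met the rule, and 4.21% of short-gap, 0.876% of long-gap, 4.29% of later and 5.25% of first genes of runs were bound. With 1000 bp upstream to 500 bp downstream the long-gap, later and first shares were 2.51%, 8.75% and 15.7%. The 921 highest scores of the list gave 244 summits and shares of 3.10%, 1.03%, 3.13% and 7.02% in the order short-gap, long-gap, later and first. Taking 2 times as many pooled peaks gave 988 summits and 14.6%, 3.29%, 14.9% and 18.2%. Gaps between coding sequences gave 5.07% short-gap and 5.59% later genes. Any overlap of the peak with the window gave 14.3% of first genes. A short limit of 200 bp gave 5.35% short-gap, 5.51% later and 16.9% first genes, a limit of 1000 bp gave 9.63% of first genes, and gaps over 50 and up to 150 bp alone gave 4.86%. Later genes stayed below first genes in 13 of the 14 alternatives that bear on it, the exception being first genes behind a same-strand neighbour only (6.32%). With 1 replicate left out, summits ranged from 497 to 515, short-gap genes from 6.81% to 6.92%, long-gap genes from 1.75% to 1.90%, later genes from 6.92% to 7.03% and first genes from 11.4% to 12.9%. Of 65 alternative values, the other 38 stayed within the main interval or, for counts, within 1.5 times the main count. The causes were not tested. No paired analysis was possible because the series has only 1 group. Depth is unknown, so weak promoters below the list cannot be told from unbound ones.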
